A study of Ovis aries with 12 samples.

Results

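The expression of 10 genes of the fibroblast matrix was followed across the corpora lutea of sheep, Ovis aries, on Affymetrix bovine expression arrays. The genes were COL1A1, COL1A2, COL3A1, COL5A1, MFAP5, DCN, LUM, FBLN1, PDGFRA and POSTN, chosen by name as products of fibroblasts, and every probe set that the platform annotation assigns to 1 of these symbols alone was taken. Of the 10 genes, 9 had such a probe set, with 15 probe sets among the 24016 on the array that are not controls. COL5A1 had none and was not analysed here. COL1A1, COL1A2, COL3A1 and FBLN1 had more than 1, PDGFRA had 3, and a gene is described by its brightest probe set over all arrays unless another is named.

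The corpus luteum forms from the ovulated follicle and secretes progesterone. The study's title names genes associated with pregnancy and their part in keeping the gland from luteolysis, the regression that ends a cycle without a conceptus. There were 12 arrays in 4 groups of 3, with a different ewe named in each title: day 12 non-pregnant, day 12 pregnant, day 14 non-pregnant and day 14 pregnant. The pregnant ewes were mated with a fertile ram, whereas the non-pregnant ewes were left unmated and a vasectomized ram was used to establish the day of their cycle. All glands were snap frozen, and the labels used here give neither breed nor age of the ewes.

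Fibroblasts lay down the fibrous scaffold that surrounds the steroid-making cells and vessels of the gland. Collagen type I, built of COL1A1 and COL1A2 chains, and type III, built of COL3A1 chains, form banded fibrils. Type V collagen starts and limits their growth, and the small proteoglycans decorin and lumican bind the fibrils and set their width and spacing. MFAP5 sits on the fibrillin microfibrils that carry elastic fibres, FBLN1 is a fibulin of basement membranes and elastic fibres, and POSTN is a matricellular protein that helps to cross-link collagen. PDGFRA is a receptor for platelet-derived growth factors that many tissue fibroblasts carry on their surface. In a regressing corpus luteum, steroid-making cells are lost while a collagen-rich scar is left.

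The values were RMA levels on the log2 scale, in which 1 unit is a doubling, and array medians lay between 5.16 and 5.24. Groups were taken from the source label, since the titles name day 12 of pregnancy for all 12 arrays. The description label calls 4 arrays a gene array, here batch A, and 8 a genome array, here batch B. Batch A took in 2 of the day 14 non-pregnant arrays and 1 each of the pregnant groups, and all 3 day 12 non-pregnant arrays were in batch B. The day 14 non-pregnant glands stood apart in markers of steroid-making cells: the mean log2 level of the steroid genes STAR, CYP11A1 and HSD3B1 lay between 11.5 and 12.1 there and between 12.3 and 12.4 in all 9 other glands. The mean over 4 measured macrophage markers of 5 ranged over 7.10 to 8.01 in glands of day 14 without pregnancy and over 6.85 to 7.40 in those of day 12 without pregnancy. It ranged over 7.13 to 7.28 in day 12 pregnant and 6.93 to 7.64 in day 14 pregnant glands. By this mean the day 14 non-pregnant group overlapped all the others. Control probe sets at the 3′ end exceeded those at the 5′ end, an excess that is larger in more degraded RNA. The excess was 1.37 ± 0.073 (SD, n = 3, log2) in the day 14 non-pregnant group. It was 1.45 ± 0.031 (SD, n = 3), 1.58 ± 0.016 (SD, n = 3) and 1.51 ± 0.082 (SD, n = 3) in the day 12 non-pregnant, day 12 pregnant and day 14 pregnant groups. What part these differences have in the results below was not tested.

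None of the 9 measured genes passed the test in any of 5 comparisons, for which limma was fitted to all 24016 probe sets with array batch as a term and p-values were adjusted over all of them. The background was 1.45% of probe sets called for day 14 pregnant against non-pregnant ewes, 0.391% for non-pregnant ewes on day 14 against day 12, and 0% for pregnancy on day 12 and for day in pregnant ewes. For the interaction, the pregnancy difference on day 14 minus that on day 12, it was 0.0874%. At an unadjusted p under 0.05 limma named 5 of the 9 genes for non-pregnant ewes on day 14 against day 12, all lower on day 14, against a background of 6.37% of probe sets lower at that p. These were COL1A1, COL1A2, COL3A1, MFAP5 and FBLN1. The same count was 1 of 9 for day 14 pregnancy (MFAP5, background 15.4% in either direction), 1 of 9 for day 12 pregnancy (COL1A1, 7.69%), 0 of 9 for day in pregnant ewes (4.43%) and 3 of 9 for the interaction (COL1A1, COL1A2 and MFAP5, 9.42%). In whole-gland RNA, fewer fibroblasts and less of a transcript per fibroblast cannot be told apart.

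The probe sets of the 3 collagen chains were bright. Those of COL3A1 and COL1A2 lay above 99% of probe sets by their mean level and that of COL1A1 at the 98.1st percentile, although a bovine probe can lose signal on sheep RNA, so the levels of different probe sets are not read as amounts of transcript. The log2 level of COL1A2, a chain of type I collagen, was 13.31, 13.26 and 13.36 in the day 12 non-pregnant glands and 13.18, 13.15 and 13.22 in the day 12 pregnant glands. On day 14 it was 12.89, 12.87 and 13.23 in non-pregnant and 13.13, 12.95 and 13.37 in pregnant ewes. All 3 day 12 non-pregnant glands thus stood above all day 12 pregnant and all day 14 non-pregnant glands, while the groups of day 14 overlapped. Non-overlap of this kind was common on these arrays: 12.1% of all probe sets had every day 14 non-pregnant gland below every day 12 non-pregnant one, and 7.87% had every day 12 pregnant gland below every day 12 non-pregnant one. In non-pregnant ewes the fitted log2 difference of COL1A2, day 14 minus day 12, was -0.44 ± 0.13 (SE), with an adjusted p of 0.189. Within batch B, where 1 day 14 gland met 3 of day 12, it was -0.42.

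COL3A1, the chain of type III collagen, had log2 levels of 13.51, 13.63 and 13.57 in the day 12 non-pregnant glands and of 13.47, 13.38 and 13.50 in the day 12 pregnant glands. Its levels on day 14 were 13.24, 12.95 and 13.36 without pregnancy and 13.45, 13.24 and 13.49 with it. As for COL1A2, the day 12 non-pregnant glands lay above both the day 12 pregnant and the day 14 non-pregnant ones. The fitted log2 difference of COL3A1 between the days in non-pregnant ewes was -0.41 ± 0.13 (SE), with an adjusted p of 0.245 in limma, and -0.33 within batch B.

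COL1A1, the other chain of type I collagen, spread more widely between ewes. Its log2 level was 10.88, 10.88 and 11.38 in the day 12 non-pregnant group, and 10.71, 10.40 and 11.30 in the day 12 pregnant group. It was 10.24, 10.61 and 11.10 in the day 14 non-pregnant group, and 10.54, 10.26 and 11.41 in the day 14 pregnant group. All groups overlapped, and in each group that held both batches the arrays of batch A were the higher ones. The batch term of COL1A1, A minus B, was 0.79 ± 0.15 (SE), with an unadjusted p of 0.000273 and an adjusted p of 0.58 in limma. With that term, the log2 difference in non-pregnant ewes, day 14 minus day 12, was -0.92 ± 0.20 (SE, adjusted p = 0.0914), and without it -0.40 (adjusted p = 0.577). Within batch B it was -0.80, from 1 gland against 3. The day 12 difference of COL1A1, pregnant minus non-pregnant, was -0.51 ± 0.18 (SE, adjusted p = 0.585) with the batch term and -0.24 without it. On day 14, pregnant minus non-pregnant, it was 0.35 ± 0.18 (SE, adjusted p = 0.392) with the term and 0.09 without it.

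The second probe sets of the 3 collagen genes gave the same signs as the brightest ones for day 14 against day 12 in non-pregnant ewes and for pregnancy on either day. In non-pregnant ewes, day 14 minus day 12, the log2 difference was -0.57 ± 0.13 (SE) for the dimmer probe set of COL1A1, -0.60 ± 0.15 (SE) for that of COL1A2 and -0.44 ± 0.13 (SE) for that of COL3A1. Their adjusted p-values in limma were 0.0984, 0.135 and 0.198. For pregnant minus non-pregnant ewes on day 14 the brightest probe sets gave 0.21 ± 0.11 (SE) for COL1A2 and 0.22 ± 0.12 (SE) for COL3A1, with adjusted p-values of 0.399 and 0.416. The dimmer ones of COL1A1, COL1A2 and COL3A1 gave 0.42 ± 0.12 (SE), 0.39 ± 0.14 (SE) and 0.32 ± 0.12 (SE), with adjusted p-values of 0.112, 0.196 and 0.209. For the dimmer probe set of COL3A1 every day 14 pregnant gland was above every day 14 non-pregnant gland, as for 11.1% of all probe sets. Other separations seen with the brightest probe sets were absent with the dimmer ones: that of COL1A2 overlapped between the days in non-pregnant ewes, and those of COL1A2 and COL3A1 overlapped between pregnant and non-pregnant ewes on day 12. The day 14 pregnancy comparison and the comparison of days in non-pregnant ewes share the 3 day 14 non-pregnant arrays, so their values are not independent. In pregnant ewes, day 14 minus day 12, the brightest probe sets of the 3 collagen genes differed by -0.06 ± 0.18 (SE), -0.04 ± 0.11 (SE) and -0.06 ± 0.12 (SE), each with an adjusted p of 0.992 or more. There the dimmer probe sets of COL1A1 and COL3A1 had the opposite sign, at 0.07 ± 0.11 (SE) and 0.05 ± 0.11 (SE), and that of COL1A2 was -0.05 ± 0.13 (SE).

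**Figure D1:**
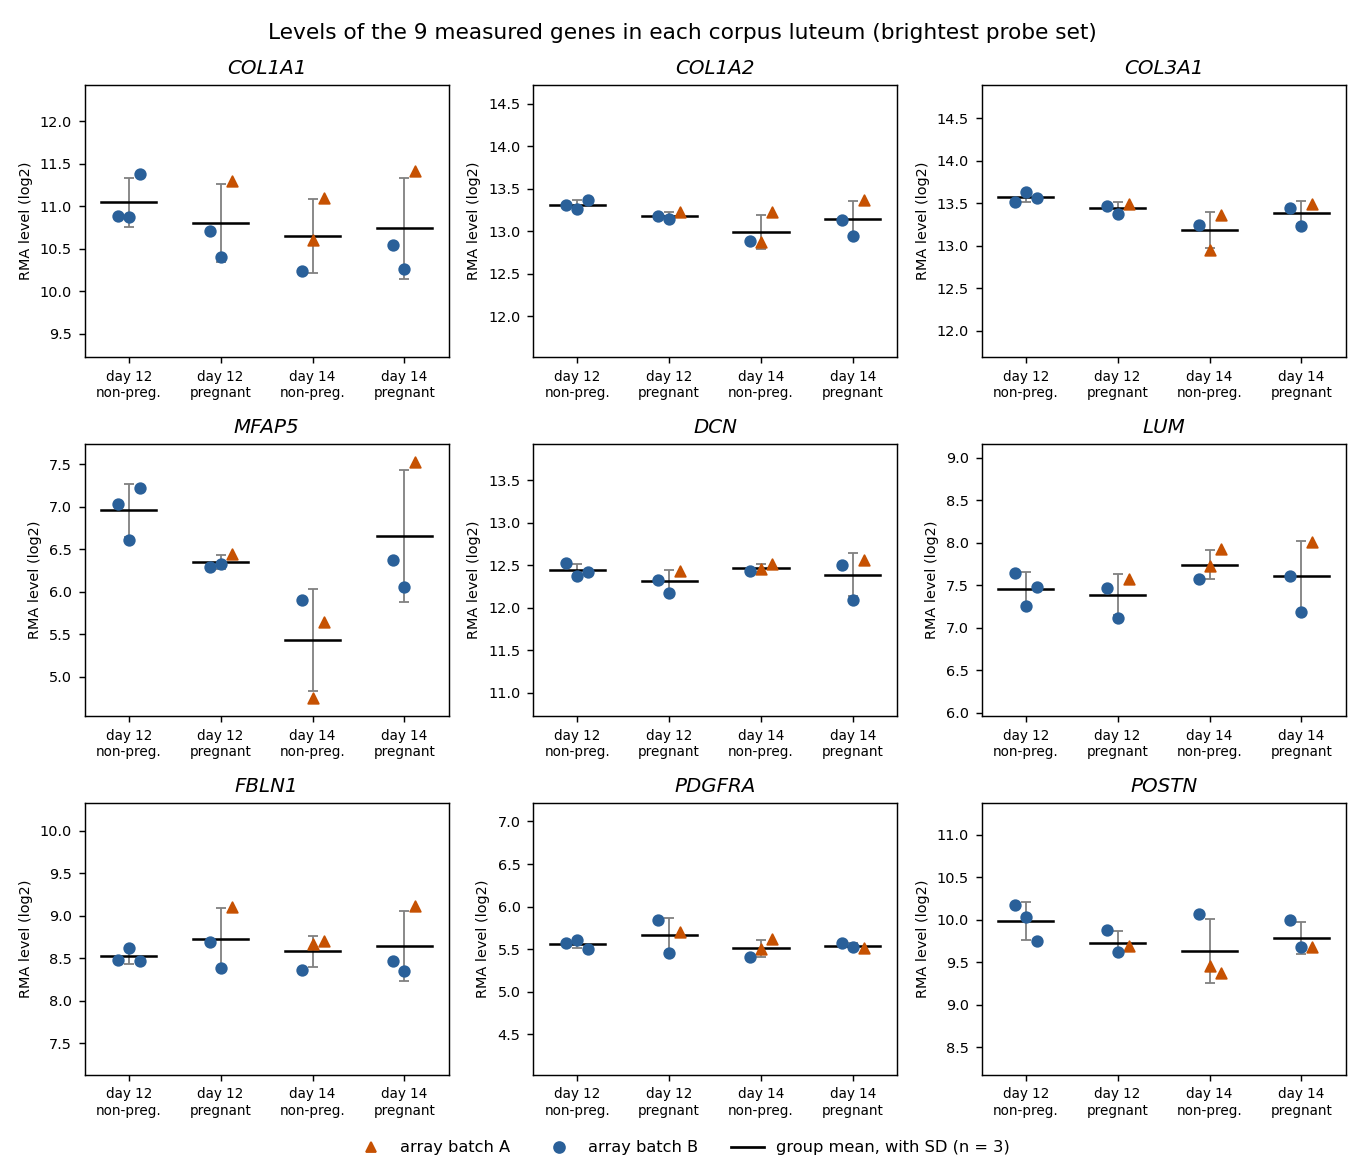
RMA log2 level of the brightest probe set of each of the 9 measured genes in the 12 corpora lutea, by group. Triangles are arrays of batch A and circles arrays of batch B, lines are group means and bars the SD (n = 3). Every axis spans the same number of log2 units. The 3 day 14 non-pregnant glands lie below all 9 others for MFAP5, with 5.90 as their highest level, and the batch A arrays lie high in their groups for COL1A1.

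MFAP5, the microfibril-associated glycoprotein, varied most of the 9 genes, over 2.77 log2 units against 0.44 to 1.17 for the others. Its only probe set stood at the 66.5th percentile of mean level, and its lowest level, 4.75, was below every array median. Its log2 level was 7.03, 6.61 and 7.22 in the day 12 non-pregnant glands and 6.29, 6.32 and 6.45 in the day 12 pregnant glands. It was 5.90, 4.75 and 5.65 in the day 14 non-pregnant glands and 6.38, 6.05 and 7.53 in the day 14 pregnant glands. All 3 day 14 non-pregnant glands were below the other 9, the nearest of which was day 14 pregnant replicate 2 at 6.05. Of all probe sets, 12.1% had this group wholly below day 12 non-pregnant glands and 11.1% wholly below day 14 pregnant ones. The share with this group below all other glands is not given here. In non-pregnant ewes the day 14 level was 3.22-fold lower than the day 12 level, a log2 difference of -1.69 ± 0.41 (SE; 95% interval -2.58 to -0.80), and the adjusted p of 0.117 in limma missed the threshold of 0.05. On day 14 the pregnant glands were 2.47-fold higher, by 1.30 ± 0.37 (SE; 95% interval 0.50 to 2.10), with an adjusted p of 0.114.

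Single ewes weighed on these values of MFAP5. Without day 14 non-pregnant replicate 1, the only array of batch B in its group, the log2 difference between the days was -2.48 (adjusted p = 0.0404) and that of day 14 pregnancy 1.94 (adjusted p = 0.0324), both past the threshold. In that fit the non-pregnant groups shared no batch, so the batch term came from the pregnant glands alone. Day and batch could then not be told apart among non-pregnant ewes. Without day 14 pregnant replicate 3, the highest gland of all, the day 14 pregnancy difference was 0.59 (adjusted p = 0.49). Within batch A, 1 pregnant against 2 non-pregnant glands, the day 14 pregnancy difference was 2.33, and within batch B, 2 against 1, it was 0.31. The comparison of days also passed when limma had no batch term (-1.52, adjusted p = 0.0478) or batch as a random block (-1.51, adjusted p = 0.0457). Over 20 alternatives the adjusted p of MFAP5 ran from 0.0404 to 0.451 for the days and from 0.0324 to 0.589 for day 14 pregnancy, with 3 and 1 of 20 past the threshold. On day 12 the pregnant glands were lower than the non-pregnant ones without overlap, by a log2 difference of -0.69 ± 0.37 (SE, adjusted p = 0.703). The interaction of MFAP5 was 1.99 ± 0.54 (SE, adjusted p = 0.28). It was 1.10 without day 14 pregnant replicate 3.

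FBLN1, the fibulin, overlapped between all groups. Its log2 level was 8.48, 8.62 and 8.46 in day 12 non-pregnant and 8.69, 8.39 and 9.11 in day 12 pregnant glands. On day 14 it was 8.37, 8.67 and 8.71 in non-pregnant and 8.47, 8.35 and 9.11 in pregnant glands. The 2 glands at 9.11 were those of batch A in the pregnant groups, and the batch term of FBLN1 was 0.53 ± 0.096 (SE), with an unadjusted p of 0.00016 and an adjusted p of 0.481. The log2 difference between days in non-pregnant ewes was -0.29 ± 0.13 (SE, adjusted p = 0.402) with the batch term and turned to 0.06 without it. The dimmer probe set of FBLN1 gave -0.17 ± 0.17 (SE, adjusted p = 0.772) with the batch term. Over all probe sets, the batch term passed for 0 in limma and had an unadjusted p under 0.05 for 1658.

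POSTN, periostin, had log2 levels of 10.18, 10.03 and 9.75 in day 12 non-pregnant glands and of 9.88, 9.61 and 9.69 in day 12 pregnant glands. In day 14 non-pregnant glands it had 10.07, 9.46 and 9.38, and in day 14 pregnant glands 10.00, 9.68 and 9.68. All groups overlapped. The fitted log2 differences of POSTN lay between -0.16 and 0.06 in the 4 comparisons of groups, with adjusted p-values from 0.797 to 0.995. For the days in non-pregnant ewes POSTN was -0.16 with the batch term, -0.35 with no batch term, -0.36 with a random block and -0.46 without day 14 non-pregnant replicate 1, and 0.08 in batch B alone. For day 12 pregnancy it was -0.16 with the batch term and -0.25 without it. Its batch term was the only negative one among the 9 genes, at -0.29 ± 0.13 (SE, adjusted p = 0.734).

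DCN and LUM are small proteoglycans that bind collagen fibrils. DCN, decorin, had log2 levels of 12.52, 12.37 and 12.43 in day 12 non-pregnant glands and 12.33, 12.17 and 12.43 in day 12 pregnant glands. It had 12.43, 12.46 and 12.52 in day 14 non-pregnant glands and 12.51, 12.10 and 12.56 in day 14 pregnant glands. The day 14 non-pregnant group, lowest for MFAP5 and all 3 collagen genes, had the highest mean of DCN before any batch term. Its lowest DCN level, 12.435, was just above the highest of the day 12 pregnant group, 12.431. All other groups of DCN overlapped. In non-pregnant ewes, day 14 minus day 12, DCN differed by -0.08 ± 0.13 (SE; 95% interval -0.37 to 0.21, adjusted p = 0.872) with the batch term, which was 0.17 ± 0.098 (SE, A minus B), and by 0.030 without it. LUM, lumican, had log2 levels of 7.64, 7.25 and 7.48 in day 12 non-pregnant and 7.47, 7.11 and 7.57 in day 12 pregnant glands. On day 14 it had 7.58, 7.72 and 7.93 in non-pregnant and 7.61, 7.19 and 8.01 in pregnant glands. The highest mean was again in the day 14 non-pregnant group, in which 2 of 3 arrays were of batch A. Its lowest LUM level, 7.578, was again just above the highest of the day 12 pregnant group, 7.575, and all other groups overlapped. The share of all probe sets separated between these groups is not given here. The batch term of LUM was 0.38 ± 0.13 (SE, unadjusted p = 0.0143, adjusted p = 0.681 in limma). Its log2 difference between the days in non-pregnant ewes was 0.03 ± 0.18 (SE; 95% interval -0.35 to 0.42, adjusted p = 0.969) with that term, 0.29 without it and 0.30 with a random block. Whether DCN and LUM differ from the collagens in their response was not tested.

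PDGFRA, the growth factor receptor, was dim: its brightest probe set stood at the 55.3rd percentile of mean level, and its other ones at the 28.8th and 21.9th. RMA gives no detection call, and whether such low values hold any signal of the gene is unknown. The brightest probe set had log2 levels of 5.57, 5.60 and 5.51 in day 12 non-pregnant glands, 5.84, 5.46 and 5.70 in day 12 pregnant, 5.40, 5.51 and 5.61 in day 14 non-pregnant and 5.58, 5.52 and 5.52 in day 14 pregnant glands. They overlapped throughout, and its fitted log2 differences lay between -0.13 and 0.09 in the 4 comparisons of groups. The 3 probe sets differed among themselves: for day 14 minus day 12 in non-pregnant ewes they gave -0.09 ± 0.12 (SE), 0.07 ± 0.17 (SE) and -0.44 ± 0.19 (SE) from brightest to dimmest, with adjusted p-values of 0.836, 0.918 and 0.402. The dimmest probe set of PDGFRA, at a mean log2 level of 3.39, was the only one with an unadjusted p under 0.05, at 0.0413. None of the genes for the PDGF ligands PDGFA, PDGFB, PDGFC and PDGFD had a probe set with a single symbol, so the ligands of this receptor were not analysed here.

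Ordered by group mean, the day 12 non-pregnant group was highest for COL1A1, COL1A2, COL3A1, MFAP5 and POSTN, and the day 14 non-pregnant group was lowest for these same 5 genes and for PDGFRA. For COL1A2 and COL3A1 the order ran from day 12 non-pregnant (means 13.31 and 13.57) through day 12 pregnant (13.18 and 13.45) and day 14 pregnant (13.15 and 13.39) to day 14 non-pregnant (13.00 and 13.19). Of these neighbours only the first pair did not overlap. For MFAP5 the order of means was 6.96, 6.65 (day 14 pregnant), 6.35 (day 12 pregnant) and 5.43, and only the last step, of 0.92, was free of overlap. Neighbouring groups overlapped at every step for COL1A1, DCN, LUM, FBLN1, PDGFRA and POSTN.

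**Figure D2:**
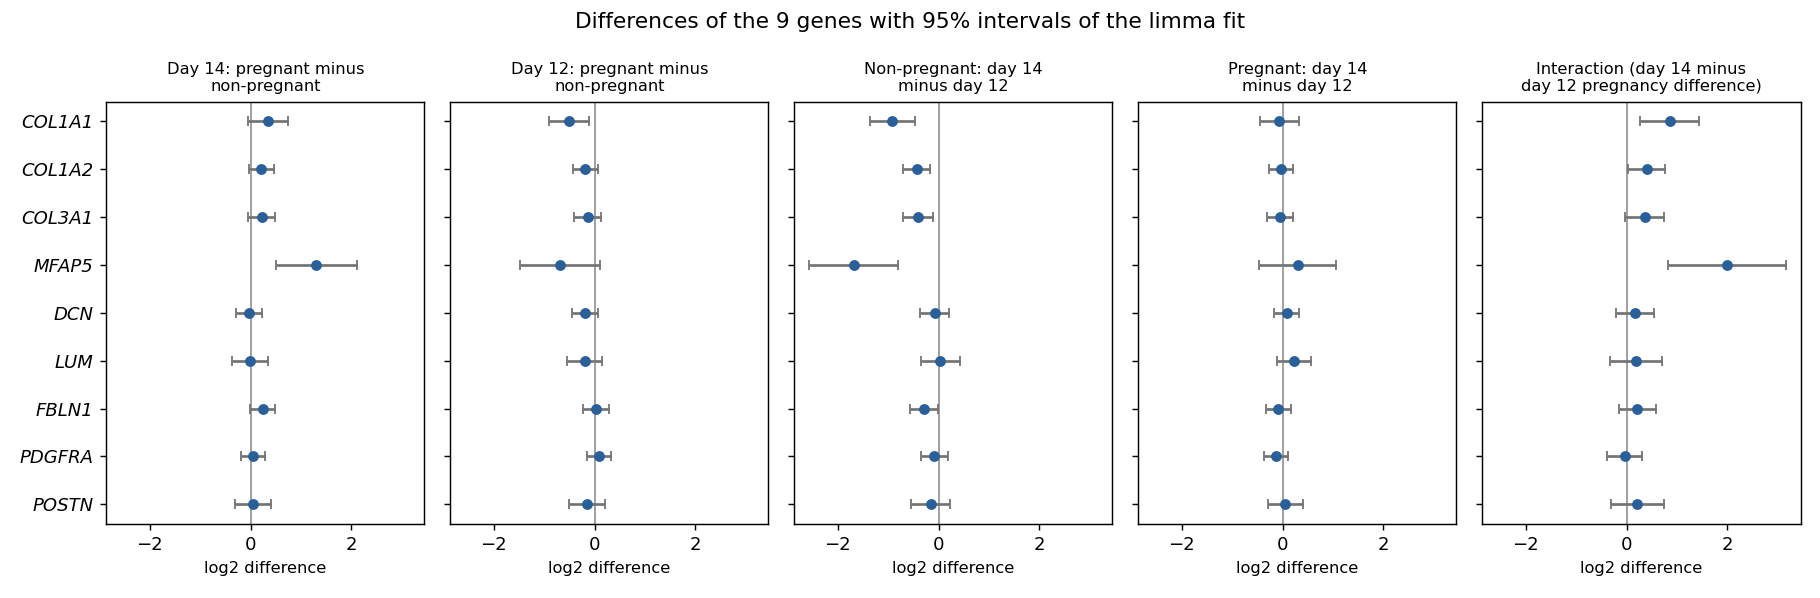
Log2 difference of the 9 genes in each of 5 comparisons (horizontal axis, first group minus second) from the limma fit with a batch term, by the brightest probe set. Points are estimates and bars 95% intervals without correction for the number of probe sets. No gene passed after adjustment, and MFAP5 has both the largest differences, such as -1.69 for non-pregnant ewes between days, and the widest intervals.

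Across the 9 genes the median log2 difference in non-pregnant ewes, day 14 minus day 12, was -0.29, and 8 of 9 were below 0, beside a median of -0.03 over all probe sets. For pregnant minus non-pregnant ewes on day 14 the median was 0.21 with 7 of 9 above 0 (0.03 over all probe sets). On day 12 it was -0.19 with 7 of 9 below 0 (0.01 over all). In pregnant ewes, day 14 minus day 12, the median was -0.04 with 5 of 9 below 0 (-0.0049 over all). For the interaction it was 0.21 with 8 of 9 above 0 (0.02 over all), led by MFAP5 and by COL1A1 at 0.86 ± 0.27 (SE, adjusted p = 0.345). For COL1A1 the interaction was 0.33 when limma had no batch term. These medians moved with the settings. For the days in non-pregnant ewes the median ran from -0.46 without day 14 non-pregnant replicate 1 to -0.16 in batch B alone or with only the groups compared, and 6 to 9 genes were below 0, with 6 when limma had no batch term. For day 14 pregnancy it ran from 0.07 with a random block to 0.30 without day 14 non-pregnant replicate 1, with 6 to 9 above 0. It was 0.09 with no batch term, 0.10 in batch B alone and 0.11 without day 14 non-pregnant replicate 2 or without day 14 pregnant replicate 3. For day 12 pregnancy it ran from -0.22 to -0.11 without day 12 pregnant replicate 1 and 2, with -0.12 with a random block, and 7 to 9 were below 0. For the days in pregnant ewes it ran from -0.11 to 0.05, without day 14 pregnant replicate 3 and 2, and omitting replicate 1 or 2 of day 12 pregnant gave 0.03 and -0.06, replicate 1 of day 14 pregnant -0.06 and batch B alone -0.09. For the interaction it ran from 0.06 in batch B alone to 0.42 without day 14 non-pregnant replicate 1, with 6 of 9 above 0 when limma had no batch term or a random block. Leaving out a day 12 pregnant gland gave 0.10 for replicate 2 and 0.34 for replicate 1. With replicate 3 of the day 14 pregnant group left out it was 0.11, and with replicate 3 of the day 12 non-pregnant group left out 0.33.

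Beyond the group means, the genes moved together from ewe to ewe. After each group's mean was taken off, the 36 pairs of genes had a median Pearson r of 0.48 over 12 arrays (range -0.50 to 0.92), and 31 of 36 were above 0. With the batch difference also removed, the median was 0.51 (range -0.24 to 0.89) and 35 of 36 were above 0. The closest pair was DCN with LUM, at 0.92 and 0.89. These genes lie side by side in the sheep RefSeq gene table (assembly ARS-UI_Ramb_v3.0), in the order KERA, LUM, DCN on chromosome 3. KERA, keratocan, a proteoglycan of the same family, was dim, with log2 levels from 2.32 to 2.54. The chains of type I collagen, COL1A1 and COL1A2, had r = 0.85 and 0.79, and COL1A2 with COL3A1 had 0.73 and 0.81. POSTN changed most with the batch: its r with FBLN1 was -0.29 after group means and 0.72 after group and batch, and with DCN it was 0.15 and 0.69. MFAP5 with PDGFRA was the only pair below 0 in both, at -0.16 and -0.24. These correlations are descriptions of 12 arrays that share groups, batches and normalization. Pairs of other genes were not computed, so it is unknown whether such values are particular to these genes.

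**Figure D3:**
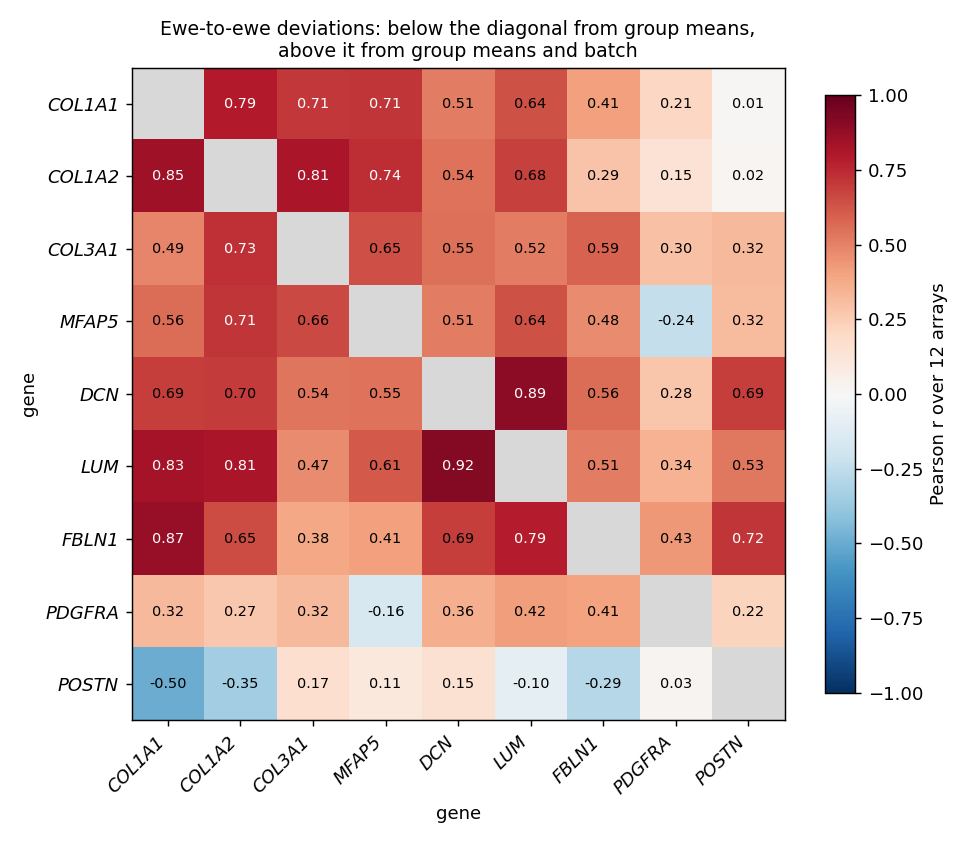
Pearson r over 12 arrays for each pair of the 9 genes (both axes) between deviations from group means (below the diagonal) and from group means and batch (above it); the colour scale runs from -1 to 1. Collagens, MFAP5, DCN, LUM and FBLN1 form a block of positive values that holds on both sides of the diagonal. DCN with LUM has 0.92 and 0.89, while the values of POSTN with COL1A1 move from -0.50 to 0.01.

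The mean of the 9 genes, each centred on its mean over the arrays, was highest in day 14 pregnant replicate 3 (0.34) and lowest in day 14 non-pregnant replicate 2 (-0.29). COL1A2 followed the mean of the other members best (r = 0.88 over 12 arrays), then COL3A1 (0.75) and COL1A1 (0.74), and POSTN least (0.13). Among 6476 other genes with a mean above the array median, the 5 most like the mean of the members were SPARC (r = 0.90), RPL5 (0.89), CROT (0.88), CDH11 (0.88) and PDGFRL (0.87). SPARC is a collagen-binding matricellular protein, CDH11 a cadherin of mesenchymal cells, RPL5 a protein of the ribosome and CROT an enzyme of peroxisomal fatty acid oxidation. SPARC had log2 levels of 11.65, 11.88 and 11.92 in day 12 non-pregnant glands, 11.76, 11.55 and 11.79 in day 12 pregnant, 11.38, 11.22 and 11.68 in day 14 non-pregnant and 11.68, 11.49 and 12.04 in day 14 pregnant glands. Its day 14 non-pregnant and day 14 pregnant glands overlapped, and for day 14 minus day 12 in non-pregnant ewes it differed by -0.54 ± 0.16 (SE, adjusted p = 0.203). CDH11 had log2 levels of 10.77, 10.81 and 11.04 in day 12 and 10.19, 9.93 and 10.53 in day 14 non-pregnant glands. Of its 2 probe sets, which had the same sign, limma called 1 for these days, beside 0.391% of all probe sets.

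The surrounding pathway was read from 7 lists of 103 genes, of which 74 had a probe set with a single symbol. Of these 74, by their brightest probe sets, limma called 1 higher and 1 lower in pregnant than in non-pregnant ewes on day 14, beside backgrounds of 0.537% of probe sets higher and 0.912% lower, and 0 in each of the other 4 comparisons. At an unadjusted p under 0.05 the same counts were 14 higher and 6 lower for day 14 pregnancy, 0 and 9 for day 12 pregnancy, 2 and 17 for day 14 against day 12 in non-pregnant ewes, 3 and 1 for the same days in pregnant ewes, and 12 and 4 for the interaction. The backgrounds, higher and lower, were 8.64% and 6.8% of probe sets for day 14 pregnancy and 3.46% and 4.23% for day 12 pregnancy. For day 14 against day 12 they were 5.32% and 6.37% in non-pregnant ewes (11.7% in either direction) and 2.22% and 2.21% in pregnant ewes. For the interaction they were 5.25% and 4.16%.

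Other collagens leaned the same way as the members without a call. Of 13 measured of 20 listed, 12 were below 0 for day 14 minus day 12 in non-pregnant ewes, with a median log2 difference of -0.23 beside -0.03 over all probe sets. Over the alternatives between 9 and 12 were below 0, and the median ran from -0.31 to -0.13, the latter with no batch term. The smallest p was that of COL11A1, a minor fibrillar chain, at -1.39 ± 0.37 (SE, adjusted p = 0.156), with log2 levels of 8.47, 8.67 and 9.51 on day 12 and 7.86, 7.30 and 8.12 on day 14. Its day 14 glands were all below those of day 12. COL5A2, the partner chain of the unmeasured COL5A1 and the neighbour of COL3A1 in the sheep gene table, differed by -0.11 ± 0.14 (SE, adjusted p = 0.82) between the same groups, with day 12 levels of 9.79, 9.95 and 10.05 and day 14 levels of 9.94, 9.80 and 9.92 that overlapped. On day 14 the smallest p for pregnancy was that of COL15A1, a collagen of basement membrane zones, at 0.94 ± 0.32 (SE, adjusted p = 0.186). Its day 14 non-pregnant log2 levels were 11.24, 9.58 and 10.73, and its pregnant ones 11.66, 11.62 and 11.40. COL12A1, which coats fibrils, had the smallest p for day 12 pregnancy, at -0.58 ± 0.21 (SE, adjusted p = 0.588).

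Elastic fibre and microfibril genes, the class of MFAP5, were below 0 in 11 of 12 measured genes of 16 listed for day 14 minus day 12 in non-pregnant ewes. Their median was -0.23, and over the alternatives 8 to 11 were below 0 and the median ran from -0.31 to -0.11, the latter with a random block. EFEMP2, a fibulin needed for elastic fibres, had the smallest p at -0.51 ± 0.17 (SE, adjusted p = 0.254), with mean log2 levels of 8.08 ± 0.075 (SD, n = 3) on day 12 and 7.64 ± 0.098 (SD, n = 3) on day 14, and the groups did not overlap. EMILIN2, an elastic fibre glycoprotein, led the list for day 14 pregnancy at 0.57 ± 0.16 (SE, adjusted p = 0.114). Its day 14 log2 levels were 7.36, 7.33 and 7.34 without and 7.79, 8.17 and 7.74 with pregnancy. MFAP2, the close relative of MFAP5, differed by -0.37 ± 0.20 (SE, adjusted p = 0.706) for day 12 pregnancy.

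The remaining lists were split more evenly in non-pregnant ewes between the days. Below 0 were 9 of 18 genes of collagen synthesis and cross-linking, 4 of 8 small leucine-rich proteoglycans, 5 of 10 adhesive and matricellular genes and 6 of 13 fibroblast surface proteins and markers. Over the alternatives these counts ran from 7 to 11, 4 to 5, 4 to 7 and 5 to 10, with 10 of 13 for the surface proteins and markers in batch B alone. In pregnant ewes between the days, 15 of 18 genes of collagen synthesis and cross-linking were below 0 (12 to 17 over the alternatives), with a median of -0.06 beside -0.0049 over all probe sets. For day 14 minus day 12 in non-pregnant ewes SPON1, a matrix protein of the spondin family, was closest to the threshold, at -0.86 ± 0.18 (SE, adjusted p = 0.0783). FMOD, fibromodulin, differed by -1.17 ± 0.40 (SE, adjusted p = 0.264) between the same non-pregnant groups at low signal. Its mean was lowest in the day 14 non-pregnant group (4.29) and highest in the day 12 non-pregnant one (5.19). For day 14 pregnancy BGN, biglycan, the nearest relative of decorin, gave 0.43 ± 0.11 (SE, adjusted p = 0.0964). Its log2 levels were 7.73, 7.80 and 8.11 in the non-pregnant and 8.20, 8.26 and 8.27 in the pregnant glands, without overlap. P4HA1, a catalytic subunit of the prolyl hydroxylase that stabilises collagen, gave -0.57 ± 0.17 (SE, adjusted p = 0.132). On day 12 ASPN, asporin, gave -1.47 ± 0.53 (SE, adjusted p = 0.585), TNXB, tenascin-X, -0.35 ± 0.10 (SE, adjusted p = 0.471), LOX, a collagen cross-linking enzyme, -0.38 ± 0.15 (SE, adjusted p = 0.598) and THY1, a surface protein of fibroblasts, -0.39 ± 0.15 (SE, adjusted p = 0.598).

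In pregnant ewes between the days, the gene with the smallest p of each list had an adjusted p of 0.992 in limma. These were COL5A2 (-0.19 ± 0.12, SE), PCOLCE2, an enhancer of procollagen cleavage (0.56 ± 0.17, SE), BGN (0.18 ± 0.11, SE), EMILIN2 (0.44 ± 0.15, SE), TNXB (0.36 ± 0.10, SE) and DPT, dermatopontin (-0.62 ± 0.21, SE). For the interaction they were COL4A3 (0.38 ± 0.15, SE), P4HA2 (-0.48 ± 0.18, SE), BGN (0.46 ± 0.17, SE), EFEMP2 (0.49 ± 0.22, SE), TNXB (0.57 ± 0.15, SE) and TNFAIP6 (-2.35 ± 0.63, SE), with adjusted p-values from 0.272 to 0.527. TNXB thus had the smallest p of its list in both, as on day 12, and none of these values passed.

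**Figure D4:**
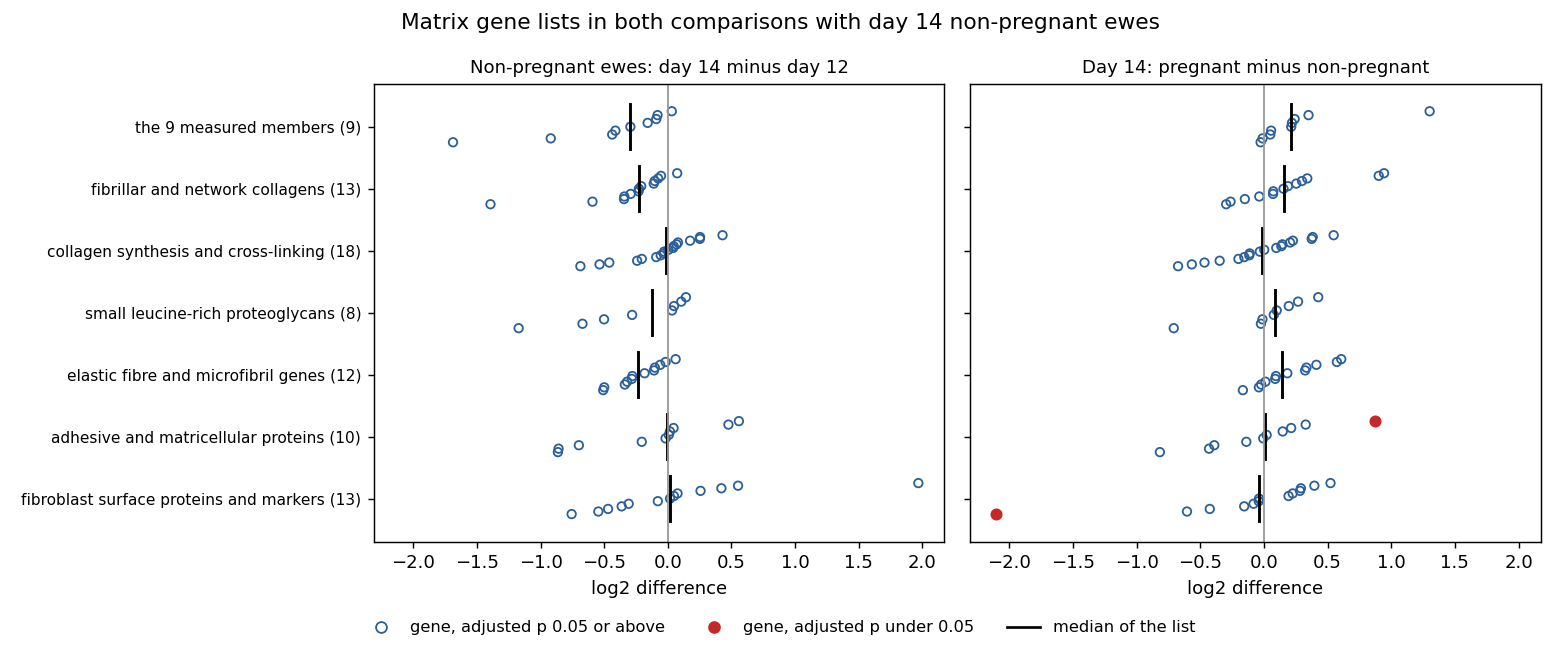
Log2 difference (horizontal axis) of each measured gene of the members and of 6 pathway lists, with the number of measured genes in brackets; the left panel is day 14 minus day 12 in non-pregnant ewes and the right panel pregnant minus non-pregnant ewes on day 14, which share the day 14 non-pregnant arrays. Vertical bars are list medians, and filled points passed an adjusted p of 0.05. The filled points are ECM1 at 0.87 and TNFAIP6 at -2.11.

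Both called genes were in the day 14 pregnancy comparison. ECM1, a secreted glycoprotein that binds other matrix proteins, was higher in pregnant than in non-pregnant ewes on day 14: its log2 level was 6.15, 5.72 and 5.54 in the non-pregnant and 6.76, 7.01 and 6.53 in the pregnant glands, which did not overlap. On day 12 its means were 6.69 without and 6.79 with pregnancy, so the day 14 non-pregnant group alone was low. For the days in non-pregnant ewes ECM1 gave -0.70 ± 0.16 (SE, adjusted p = 0.0943). The log2 difference for day 14 pregnancy was 0.87 ± 0.14 (SE, adjusted p = 0.0139), with 0.90 among the arrays of batch A and 0.74 among those of batch B. It passed in 17 of 20 alternatives and not in a fit of only the groups compared (0.0911), of batch B alone (0.113) or without day 14 pregnant replicate 3 (0.0762). TNFAIP6, listed with fibroblast markers, is a secreted hyaluronan-binding protein induced in inflammation, not a surface protein. It was lower in pregnant than in non-pregnant ewes on day 14: its log2 level was 8.63, 6.85 and 8.36 in the non-pregnant and 5.80, 5.62 and 6.44 in the pregnant glands, again without overlap. On day 12 its means were 6.20 without and 6.33 with pregnancy, and only 1 gland outside the day 14 non-pregnant group, at 6.91, was above the lowest of that group. The day 14 pregnancy difference was -2.11 ± 0.43 (SE, adjusted p = 0.0367), or 4.30-fold lower, and both of its 2 probe sets were called. Among arrays of batch A that difference was -1.17, and among those of batch B -2.92. Only 11 of 20 alternatives called it, with adjusted p up to 0.209 in a fit of only the groups compared, and leaving out any one of 8 arrays ended the call. These were replicates 1 and 3 of day 12 non-pregnant, 2 and 3 of day 12 pregnant, 1 and 3 of day 14 non-pregnant and 1 and 2 of day 14 pregnant, with adjusted p-values from 0.0531 to 0.162. For day 14 minus day 12 in non-pregnant ewes TNFAIP6 gave 1.97 ± 0.47 (SE, adjusted p = 0.117), the smallest p of its list there, and 2.43 within batch B.

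Markers of other cells moved in the same comparisons. Of 3 steroid genes STAR was higher in pregnant than in non-pregnant ewes on day 14, by 0.74 ± 0.13 (SE, adjusted p = 0.0245), and all 3 were above 0. STAR lost its call without day 14 pregnant replicate 1, 2 or 3, without day 14 non-pregnant replicate 3, within batch B and in a fit of only the groups compared, with adjusted p from 0.0506 to 0.162. Of 7 smooth muscle and pericyte markers 5 were below 0 for day 14 minus day 12 in non-pregnant ewes (median -0.18). For day 14 pregnancy 4 of 7 were above 0 (median 0.25). MYH11, for one, gave -0.55 ± 0.21 (SE, adjusted p = 0.332 in limma) and 0.72 ± 0.19 (SE, adjusted p = 0.0962) in these comparisons. RGS5 had the opposite signs, at 0.13 ± 0.18 (SE) and -0.10 ± 0.17 (SE), and TAGLN was below 0 in both, at -0.10 ± 0.23 (SE) and -0.24 ± 0.21 (SE). Only CNN1, a smooth muscle calponin, was called, and like RGS5 it went the other way from MYH11 in both. Its log2 level was 7.78, 7.98 and 7.61 in day 14 non-pregnant glands and between 5.94 and 6.48 in all 9 others. Its log2 difference was -1.54 ± 0.15 (SE, adjusted p = 0.000974) for pregnant minus non-pregnant ewes on day 14, and it rose by 1.38 ± 0.16 (SE, adjusted p = 0.00525) on day 14 against day 12 without pregnancy, a call lost only in the fit of the groups compared (0.182). Its interaction was -1.43 ± 0.22 (SE, adjusted p = 0.0456) and passed in 7 of 19 alternatives. Leaving out any array other than day 14 non-pregnant replicate 2 or 3 ended that call, with adjusted p from 0.0664 to 0.161. None of 5 endothelial, 4 macrophage, 4 T cell and 3 red blood cell markers was called in any of the 5 comparisons. The mean log2 level of the 7 smooth muscle and pericyte markers, CNN1 included, was 7.21 to 7.58 in day 14 non-pregnant glands and 7.13 to 7.40 in day 12 non-pregnant ones. It was 7.05 to 7.63 in day 14 pregnant and 7.13 to 7.28 in day 12 pregnant glands, so the day 14 non-pregnant group overlapped the others. The part of these cells in the values of the matrix genes was not tested.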

How the data were processed

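The deposited log2 values are RMA output, per the submitters' processing notes, which name Affymetrix Expression Console without a version. RMA removes background, equalises the arrays' distributions and combines the probes of each set. Per the labels' protocols, Trizol-extracted RNA received biotin through a kit for whole transcripts. Values were used as deposited, without 112 control probe sets. Symbols came from the platform annotation of the bovine array, and probe sets with several symbols were not used.

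Group means and an additive batch term were fitted to the 12 arrays with limma 3.58.1 in R 4.3.3 (7 residual and 4.39 prior degrees of freedom). The moderated test was two-sided, with Benjamini-Hochberg adjustment over 24016 probe sets and a threshold of 0.05. The fit was tested on simulated data. The number of arrays limits the precision. Replicate numbers follow accession order and pair no samples. Named genes are all members, each list gene past the threshold, otherwise the gene with the smallest p of a list in a comparison, and the 5 most like the members. KERA, a neighbour of LUM, other values of COL5A2 and the called marker genes were added after their values were seen. Members and lists were chosen with earlier results of these data known. Alternatives were a fit without batch, with a random batch block or of only the groups compared, a 25th percentile filter, median centring, an intensity trend, the mean of a gene's probe sets and leaving out each array; batch B alone was added after seeing the data.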

Additional observations from a re-analysis of the deposited data

How the results depend on the processing

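Of 891 values of the 9 genes under the alternatives, 839 kept their sign and their side of the threshold, 4 passed it, all of MFAP5, and 48 changed sign, in 19 of 45 results. No value that changed sign was larger than 0.23 in size, and the smallest adjusted p among them was 0.668. With no batch term the log2 difference turned to 0.030 for DCN and 0.059 for FBLN1 (non-pregnant, day 14 minus day 12), and to -0.067 for LUM and -0.14 for FBLN1 (interaction). With a random block these were 0.038, 0.085, -0.086 and -0.17. With only the groups compared, LUM was 0.0051 for day 14 pregnancy and POSTN 0.084 for the days in non-pregnant ewes. With the mean of a gene's probe sets, FBLN1 was -0.025 and PDGFRA -0.044 for day 12 pregnancy, COL1A1 0.0019 for the days in pregnant ewes and PDGFRA 0.14 for the interaction. In batch B alone, POSTN was -0.23 for day 14 pregnancy and 0.084 for the days in non-pregnant ewes, MFAP5 -0.091 for the days in pregnant ewes, and LUM -0.012 and PDGFRA 0.053 for the interaction. The cause was not tested.

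Leaving out 1 array turned the sign in these ranges. For day 14 pregnancy LUM ran from -0.17 to 0.12, DCN from -0.11 to 0.081, PDGFRA from -0.016 to 0.11 and POSTN from -0.030 to 0.30. For day 12 pregnancy FBLN1 ran from -0.056 to 0.13 and PDGFRA from -0.034 to 0.21. For the days in non-pregnant ewes LUM ran from -0.080 to 0.12. For the days in pregnant ewes COL1A1 ran from -0.18 to 0.052, COL1A2 from -0.11 to 0.040, COL3A1 from -0.11 to 0.019, DCN from -0.016 to 0.21, MFAP5 from -0.23 to 0.58 and POSTN from -0.060 to 0.17. For the interaction LUM ran from -0.0054 to 0.34 and PDGFRA from -0.18 to 0.10.

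The number of the 9 genes called was 0 in every comparison and became 1, MFAP5, for the days in non-pregnant ewes with no batch term or a random block. Leaving out 1 array gave 0 to 1 for those days and for day 14 pregnancy. Over all probe sets the 348 calls of day 14 pregnancy were 531 with no batch term, 24 with only the groups compared, 163 in batch B alone and 88 to 510 without 1 array. The 0 calls of day 12 pregnancy were 1 with only the groups compared and 0 to 5 without 1 array, and 1847 probe sets had an unadjusted p under 0.05 there. The 94 calls of the days in non-pregnant ewes were 415 with no batch term, 462 with a random block, 1 with only the groups compared, 142 in batch B alone and 28 to 254 without 1 array. The 21 calls of the interaction were 50 with no batch term, 50 with a random block, 59 in batch B alone and 1 to 76 without 1 array. The range of day 14 pregnancy ran from leaving out day 14 pregnant replicate 3 to day 14 non-pregnant replicate 2.

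No paired analysis was run, since each title names a different ewe. The labels carry no replicate numbers, and those used here follow accession order. With 3 ewes a group, the median standard error of the 9 genes was 0.12 to 0.18 log2 units over the 5 comparisons.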
